A study of Mus musculus with 20 samples.

Results

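AP-1, EGR and MYC are transcription factors of the early response, the set of genes that cells switch on soon after a growth factor, cytokine or stress signal. The genes described here are Fos, Fosb, Fosl1 and Fosl2, Jun, Junb and Jund, Egr1 and Egr2, and Myc. They were chosen by gene name, and all 10 are among the 25219 genes of the deposited table. All 10 also passed the filter on low counts in both tissues, Fosl1 only through its Ai-α4KO libraries. Passing only through these libraries means here that fewer than 3 of the 5 Control libraries reached the level of the filter, a limit set after seeing the data.

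RNA was measured in inguinal white adipose tissue (iWAT) and brown adipose tissue (BAT) of males. Each tissue has 5 libraries per genotype, Control and Ai-α4KO. All mice carried floxed alleles of Igbp1, the X-linked gene that encodes the phosphatase regulator α4. Ai-α4KO mice also carried Adiponectin-CreERT2, a Cre recombinase made under a promoter of adipocytes and active only with tamoxifen. The study's methods describe Control mice as floxed mice without Cre, whereas the labels call them WT. Both genotypes received tamoxifen, in 5 injections over 6 days from 2 months of age, and tissue was taken 1 week after recombination. Whole tissue was used, so the libraries hold RNA of every cell type in the depot, and fewer cells of a type cannot be told apart from less RNA per cell. The labels do not say whether the numbered samples of a group were separate mice, or whether 1 mouse gave both tissues, and p-values measure only the spread between these samples.

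The AP-1 factor is a dimer of a FOS protein with a JUN protein, and it binds the site TGACTCA or its complement TGAGTCA. FOS proteins cannot pair with each other and need a JUN partner, whereas JUN proteins can also pair among themselves. EGR1 and EGR2 are zinc finger factors, and MYC pairs with MAX to bind the E-box CACGTG. Fos, Egr1 and their relatives are switched on through kinases of the MAPK pathway, serum response factor (SRF) and CREB, and their messengers are short-lived. In macrophages FOS, JUN and EGR2 are part of the response to inflammatory signals, and in adipocytes AP-1 and MYC are known to act on differentiation and inflammatory genes.

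The promoters were searched for sites through which early signals are known to act. RefSeq windows (GRCm38.p6) of 250 bases before the transcription start were matched for 7 of the 10 genes. Fosl1, Egr1 and Myc were not matched. The start sites were those of the deposited table, except that the RefSeq start of Fos lies 11 bases upstream of it. The last 120 bases before the start are shown for the 5 of these 7 genes in which one of the sites named next was found, written 5′ to 3′ on the strand of the gene. Capitals mark the core of the cAMP response element (TGACG or its complement CGTCA), the site TGACATCA, through which JUN and ATF2 are known to bind the Jun promoter, and the CArG box, the binding site of SRF.
Fos (chr12:85473770-85473889, plus strand): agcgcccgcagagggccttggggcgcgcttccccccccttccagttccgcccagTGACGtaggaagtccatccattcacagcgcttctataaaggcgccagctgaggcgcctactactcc
Fosb (chr7:19310046-19310165, minus strand): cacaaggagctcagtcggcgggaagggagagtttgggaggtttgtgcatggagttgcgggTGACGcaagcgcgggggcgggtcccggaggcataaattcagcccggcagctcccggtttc
Jun (chr4:95052223-95052342, minus strand): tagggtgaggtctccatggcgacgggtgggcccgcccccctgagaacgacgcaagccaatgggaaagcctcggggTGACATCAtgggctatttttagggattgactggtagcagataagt
Junb (chr8:84978749-84978868, minus strand): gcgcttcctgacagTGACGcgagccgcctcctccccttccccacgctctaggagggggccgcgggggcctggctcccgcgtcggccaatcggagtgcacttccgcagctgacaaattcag
Egr2 (chr10:67537749-67537868, plus strand): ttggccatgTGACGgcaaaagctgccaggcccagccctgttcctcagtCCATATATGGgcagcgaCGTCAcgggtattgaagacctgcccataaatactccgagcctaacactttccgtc

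In the whole windows this core began 129 and 66 bases before the start in Fos, of which the first lies outside the stretch shown, 60 in Fosb, 106 in Junb, and 111 and 55 in Egr2, where the CArG box began 72 bases before the start. Over both strands, 17.8% of the 32851 windows of all genes held the core, 2.93% held TGACATCA or its complement TGATGTCA, and 1.47% held a CArG box. Fosl2 and Jund held none of these 3. Fosb and Fosl2 held an EGR site, GCGGGGGCG, at 50 and 79 bases before the start (searched with GCGTGGGCG and both complements, in 3.06% of windows). None of the 7 windows held the AP-1 site itself, which 4.46% of all windows did. A match of letters is a description and does not show that a factor binds there.

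The targeted gene was checked first. Igbp1 was between 57.5 and 76.6 CPM (normalized counts on the scale of 1 library size, with TMM factors over all 20 libraries) in the Control and between 10.1 and 11.1 in the Ai-α4KO libraries of iWAT. In BAT it was between 85.4 and 105 in Control and between 13.7 and 25.2 in Ai-α4KO libraries, so each library matched its label. Library totals were 24023371 to 50384446 counts. Some libraries stood apart. Summed CPM of 8 B cell markers was 513 in Control iWAT 1 and 204 in Control iWAT 4 against 5.28 to 14.2 in the other iWAT libraries. Summed CPM of 12 skeletal muscle markers was 8487 in Control iWAT 4 and reached 6503 in Ai-α4KO iWAT 1, against 5.999 to 213 in the others. In BAT the same muscle sum was 1118 to 11180 in Control and 15700 to 53380 in Ai-α4KO libraries. By the rule given below, 10 of the 12 markers were called higher there, beside 18.2% of all genes. Of 12 adipocyte markers, 10 were called lower in iWAT and 8 in BAT, beside 10.7% and 13.3% of all genes. Every one of the 12 was detected in every group. Summed CPM of 8 brown adipocyte markers was 1644 to 12810 over the 10 BAT libraries and at most 1029 in any iWAT library, as the labelled depots imply.

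Most of the early response genes rose in Ai-α4KO tissue of both depots. A gene was called at an adjusted p below 0.01 and a change of at least 2-fold in edgeR's quasi-likelihood test, fitted over all genes of a tissue. In each tissue 7 of the 10 genes were called higher. One of them is Fosl1, which had to differ to pass the filter, and of the other 9 genes 6 were called in each tissue. Among all genes, 11.3% were called higher and 10.7% lower of 14604 tested in iWAT, and 18.2% higher and 13.3% lower of 14344 tested in BAT. Fosb, Fosl1, Fosl2, Junb, Egr2 and Myc were called higher in both tissues, Jun in iWAT and Fos in BAT. Without Fosl1, 5 of 9 were called in both tissues, against 9.49% of the 13975 genes tested in both. When genes that passed only through the Ai-α4KO libraries are left out, 10.8% of genes were called higher in iWAT and 15.7% in BAT. With no scaling, BAT calls over all genes moved from 2614 higher and 1910 lower to 3251 and 1265, and Jun and Jund were called as well. Without Fosl1 the estimates of all 9 genes were above 0 in both tissues, and their median on the log2 scale was 1.14 (iWAT) and 1.29 (BAT), against -0.0019 and -0.079 over all genes selected the same way. Every Ai-α4KO library was above every Control library for 6 of the 10 genes in each tissue, Fosl1 among them, or 5 of the other 9, which held for 20.7% of all genes in iWAT and 24.7% in BAT.

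**Figure D1:**
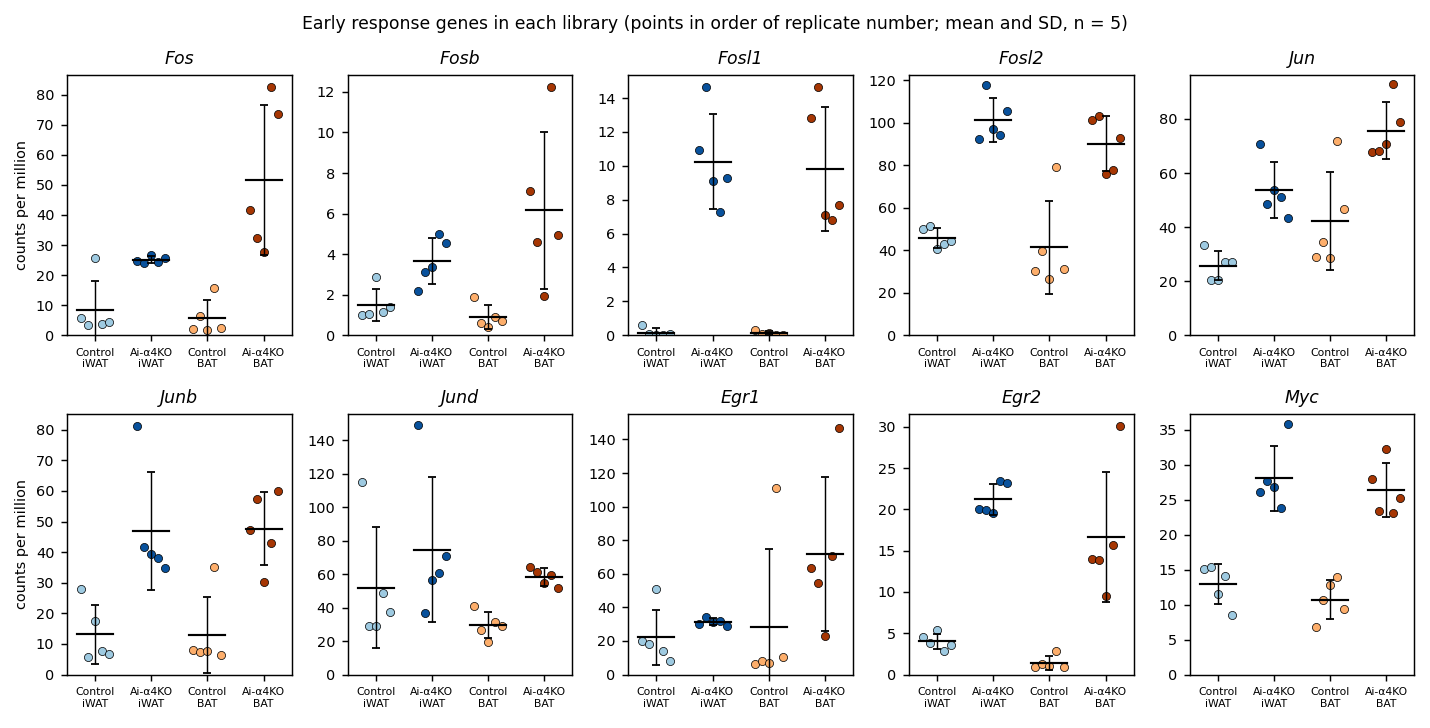
CPM of the 10 genes (vertical axes, linear from 0, own scale per gene) in each of the 20 libraries, drawn in order of replicate number within the 4 groups, with the mean as a line and the SD as a bar. Fosl1 and Egr2 separate the genotypes in both tissues, while Fos and Egr1 have 1 high Control library in each tissue.

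**Figure D2:**
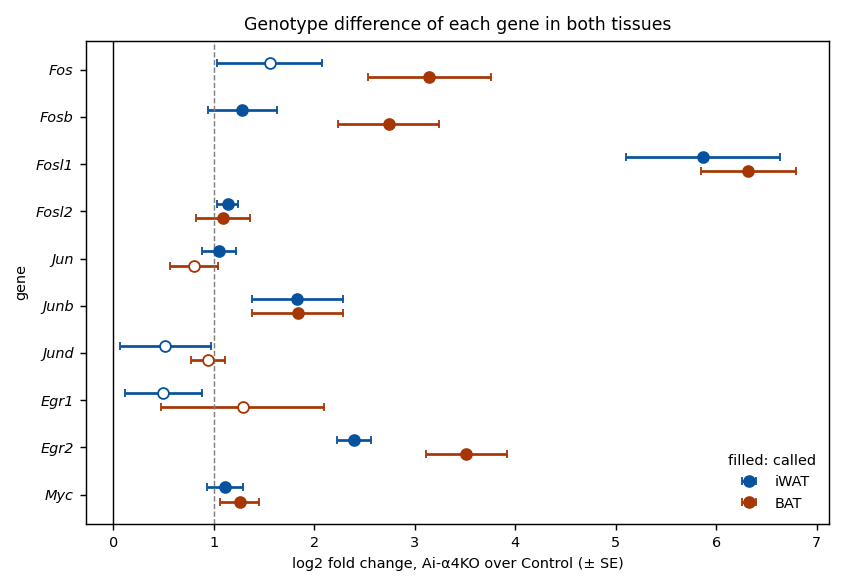
Log2 fold change of Ai-α4KO over Control with its SE for each gene in iWAT and BAT, with filled points where the gene was called and a dashed line at a 2-fold change. All 20 points lie above 0, and Fosl1 lies farthest from 0 in both tissues.

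Macrophage markers moved with these genes. Of 12 macrophage markers, 11 were called higher in iWAT and 12 in BAT, beside 11.3% and 18.2% of all genes. Their summed CPM in iWAT was 1595 to 2855 for Control and 9277 to 12240 for Ai-α4KO libraries. For BAT the sums were 321 to 729 and 5416 to 8888. The 9 neutrophil markers in the table summed to 20.3 to 171 CPM in Control iWAT against 147 to 528 in Ai-α4KO iWAT, and to 12.4 to 36.4 against 202 to 364 in BAT. The part of these cells in the results on early response genes was not tested. The muscle sum separated the BAT genotypes without overlap, so that in BAT a muscle score used as a covariate and the genotype cannot be fully told apart.

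Fosl1, which encodes FRA-1, an AP-1 subunit with no transactivation domain of its own, had the largest estimate of the 10 genes. It passed the filter only through the Ai-α4KO libraries, so its values are a description. In Control iWAT its expected counts were 27.5, 2.04, 0, 1.01 and 3.04 in libraries 1 to 5, or 0 to 0.593 CPM. In Ai-α4KO iWAT the gene was at 10.9, 14.7, 9.11, 7.25 and 9.26 CPM. Fosl1 was thus near the detection limit in 4 of the 5 Control libraries and well measured in every Ai-α4KO library, with the highest Control value in library 1, which also had high B cell markers. The fitted log2 fold change, which depends on the prior count, was 5.87, and it was 7.62 without Control iWAT 1. In Control BAT the CPM values were 0.319, 0.0782, 0.136, 0.0353 and 0.0398, from at most 7 counts per library. In Ai-α4KO BAT they were 12.8, 14.6, 7.07, 6.82 and 7.70 CPM, again without overlap. The fitted log2 fold change in BAT was 6.32. It ran from 6.06 to 7.01 with each library left out, and it was 8.04 with the muscle score as a covariate. Fosl1 spans chr19:5447698-5455938 on the plus strand in the table's mm10 coordinates, and it overlaps Ccdc85b on the minus strand. Whether the counting used strand is not given in the sources used here, and reads in the shared stretch cannot then be told apart. Ccdc85b itself was at 14.9 ± 7.76 CPM in Control and 10.6 ± 5.16 in Ai-α4KO iWAT, and at 12.2 ± 1.94 and 9.26 ± 1.66 in BAT (SD, n = 5 each).

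Fos, the founding member of the family (chr12:85473901-85477270, plus strand), was high in 1 Control library of each tissue. The Control iWAT libraries held 5.87, 3.48, 25.5, 3.62 and 4.28 CPM, so that library 3 was over 4-fold above every other. In Ai-α4KO iWAT all 5 libraries lay close together, at 24.8, 24.2, 26.8, 24.2 and 25.8 CPM. The log2 fold change was 1.56 (SE 0.52, adjusted p = 0.0255), which did not pass the threshold. Without Control iWAT 3 it was 2.49 (adjusted p = 1.38e-05) and Fos was called. It was called in 5 of 25 alternatives, the others being a replicate block, limma on FPKM with either pseudocount, and a limit of 0.05 on the adjusted p. In Control BAT the values were 1.91, 6.38, 1.72, 15.8 and 2.35 CPM, with library 4 the highest. Ai-α4KO BAT libraries held 41.6, 32.2, 27.8, 82.5 and 73.7 CPM, all above the Control libraries. Fos rose in BAT by a log2 fold change of 3.15 (SE 0.61, adjusted p = 7.79e-04), which was 4.02 (adjusted p = 4.32e-05) without Control BAT 4. With the muscle marker score as a covariate the BAT estimate was 2.07 (adjusted p = 0.0863) and the call was lost.

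Fosb, a close relative of Fos that also forms activating dimers (chr7:19302696-19310045, minus strand), was low in every group. In Control iWAT it was at 1.02, 1.06, 2.89, 1.13 and 1.38 CPM, with library 3 the highest as for Fos. The Ai-α4KO iWAT values were 2.17, 3.12, 3.39, 4.996 and 4.54 CPM, so that the groups overlapped. Fosb was called in iWAT with a log2 fold change of 1.29 (SE 0.35, adjusted p = 0.00867), near the threshold. The call was lost in 15 of 25 alternatives, among them the fits without Control iWAT 1, 2, 4 or 5 or without Ai-α4KO iWAT 2, 3, 4 or 5, over which the estimate was never below 1.10. In BAT it was at 1.87, 0.587, 0.408, 0.917 and 0.717 CPM in Control and at 7.13, 4.60, 1.95, 12.3 and 4.92 CPM in Ai-α4KO libraries. The BAT groups were separated by a narrow margin, since the lowest Ai-α4KO library was just above the highest Control library. The BAT log2 fold change was 2.74 (SE 0.50, adjusted p = 4.97e-04).

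Fosl2, which encodes FRA-2 (chr5:32136472-32157839, plus strand), was called higher in both depots. In iWAT it was at 50.2, 51.4, 40.8, 42.9 and 44.2 CPM in Control and at 92.3, 118, 97.3, 94.4 and 106 CPM in Ai-α4KO libraries. These groups were far apart, and the log2 fold change of 1.14 (SE 0.10, adjusted p = 7.91e-06) kept its call in all 25 alternatives. Control BAT libraries held 30.5, 39.5, 26.3, 79.2 and 31.3 CPM, and Ai-α4KO BAT libraries 101, 103, 75.7, 77.9 and 93.0 CPM. Control BAT 4 lay inside the Ai-α4KO range and the other Control libraries below it. Fosl2 rose in BAT by a log2 fold change of 1.09 (SE 0.27, adjusted p = 0.00385), which was 1.46 (adjusted p = 1.00e-05) without Control BAT 4 and 1.08 (adjusted p = 0.0603) with the muscle score as a covariate. The call was also lost without Control BAT 1, 2, 3 or 5, where the estimate was at least 0.96.

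The make-up of the FOS family is given by group, with no test. Levels of different genes are compared per transcript length, in the deposited FPKM, which are fragments scaled by transcript length and library total. In iWAT the 4 FOS genes summed to 10.98 ± 2.998 FPKM (SD, n = 5) without and 35.6 ± 2.81 (SD, n = 5) with the knockout. The BAT sums were 7.85 ± 5.29 and 43.04 ± 9.71 FPKM. Fosl2 made up 68.3% of the Control sum and 47.6% of the Ai-α4KO sum in iWAT, and 73.8% and 34.04% in BAT. Its share lay between 63.4% and 81.6% in Control BAT and between 22.2% and 41.9% in Ai-α4KO BAT, without overlap. Fosl1 took at most 2.86% in any Control library of iWAT and at least 12.8% in any Ai-α4KO library, and 0.1002% to 2.58% against 6.68% to 20.1% in BAT. Fos made up 49.9% of the family in Ai-α4KO BAT and 22.2% in Control BAT. In iWAT the shares of Fosl2 overlapped, at 34.95% to 81.6% in Control and 45.5% to 48.9% in Ai-α4KO libraries. Fosl2 was the main FOS messenger in 4 of 5 Control libraries and all 5 Ai-α4KO libraries of iWAT, and in all 5 Control libraries of BAT.

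**Figure D3:**
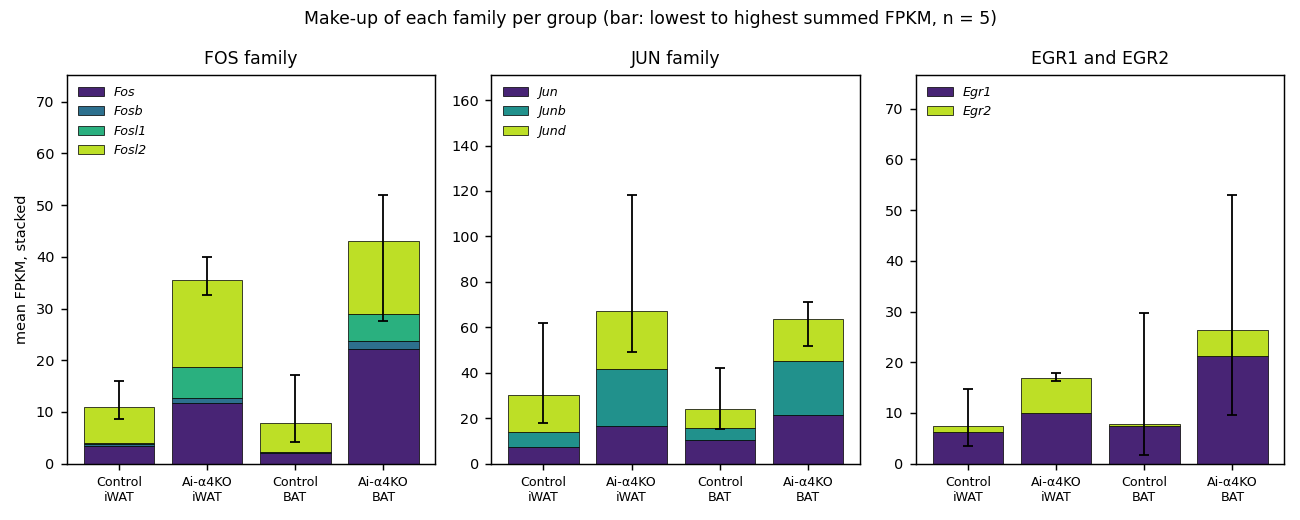
Mean FPKM of each gene, stacked by family, in the 4 groups, with a bar from the lowest to the highest summed FPKM of the 5 libraries. The FOS sum was 10.98 FPKM in Control and 35.6 in Ai-α4KO iWAT, and the Fosl1 segment is visible only in the Ai-α4KO groups.

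Junb, a JUN subunit that is itself an early response gene (chr8:84976909-84978748, minus strand), rose in both tissues. Control iWAT libraries held 28.02, 5.81, 17.5, 7.75 and 6.57 CPM and Ai-α4KO iWAT libraries 81.2, 41.6, 39.3, 38.1 and 34.9 CPM. Library 1 was the highest of its group in both genotypes, and the groups did not overlap. The log2 fold change was 1.83 (SE 0.45, adjusted p = 0.00507), which had an adjusted p of 0.0115 without Ai-α4KO iWAT 1. Leaving out Control iWAT 2, 4 or 5 also lost the call, with estimates of at least 1.54 throughout. In Control BAT the values were 8.06, 7.28, 7.84, 35.03 and 6.53 CPM, and in Ai-α4KO BAT 47.3, 57.3, 30.4, 43.1 and 60.1 CPM. The Control libraries were alike except for library 4, which reached the Ai-α4KO range. The BAT log2 fold change of 1.84 (SE 0.46, adjusted p = 0.00394) was 2.64 (adjusted p = 1.56e-06) without Control BAT 4, and 1.901 (adjusted p = 0.0614) with the muscle covariate. Without Control BAT 1, 2, 3 or 5 the call was lost at estimates of 1.66 or more.

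Jun encodes the JUN subunit after which the family is named (chr4:95049036-95052222, minus strand). Its values were 33.5, 20.4, 20.5, 27.3 and 27.1 CPM in Control iWAT and 70.8, 48.7, 53.9, 51.3 and 43.5 CPM in Ai-α4KO iWAT. All Ai-α4KO libraries were above the Control libraries, with a log2 fold change of 1.05 (SE 0.17, adjusted p = 3.44e-04) just past the 2-fold limit. Leaving out Ai-α4KO iWAT 1 gave 0.93 (adjusted p = 4.87e-04), under that limit, as did leaving out Control iWAT 3, at 0.94, or Control iWAT 2, at 0.98. In BAT Jun was at 29.0, 34.4, 28.7, 72.0 and 46.7 CPM in Control and 68.0, 68.0, 70.9, 92.8 and 79.0 CPM in Ai-α4KO libraries. The one Control library inside the Ai-α4KO range was again library 4. The BAT estimate of 0.81 (SE 0.24, adjusted p = 0.0111) was not called, and it was 1.08 (adjusted p = 2.81e-04) without that library.

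Jund, the JUN gene that resting cells express (chr8:70697739-70700616, plus strand), was not called in either tissue. Control iWAT libraries were at 115, 28.8, 29.2, 49.0 and 37.3 CPM and Ai-α4KO iWAT libraries at 149, 36.7, 56.2, 60.7 and 70.8 CPM. In each genotype library 1 was more than 2-fold above every other, and the groups overlapped. The estimate was 0.52 (SE 0.45, adjusted p = 0.351) and remained uncalled in all 25 alternatives. In BAT Jund lay between 19.2 and 41.2 CPM in Control and between 51.6 and 64.3 in Ai-α4KO libraries. These groups did not overlap, and the log2 difference of 0.95 (SE 0.17, adjusted p = 4.06e-04) passed the p limit but not the 2-fold limit. It was called in 7 of 22 alternatives, among them the muscle covariate, at 1.34, and the fit without Control BAT 1, at 1.087.

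Per length, the 3 JUN genes of iWAT summed to 30.2 ± 18.1 FPKM (SD, n = 5) in Control libraries and to 67.2 ± 28.6 with the knockout. Those of BAT summed to 23.9 ± 10.7 and 63.8 ± 7.66 FPKM. The iWAT sums overlapped, at 18.01 to 62.02 against 49.3 to 118 FPKM, and the BAT sums did not, at 15.1 to 42.2 against 51.6 to 70.98. Junb made up 20.8% of the JUN sum in Control and 37.6% in Ai-α4KO iWAT, and 20.5% and 36.6% in BAT. The share of Jund was 51.97% and 36.5% in iWAT and 36.01% and 29.2% in BAT. The ranges of both genes overlapped between genotypes in both tissues. The ratio of the FOS sum to the JUN sum was 0.315 ± 0.0879 in Control BAT and 0.672 ± 0.118 in Ai-α4KO BAT, at most 0.415 in the former and at least 0.535 in the latter. In iWAT it was 0.442 ± 0.224 and 0.588 ± 0.188, and the libraries overlapped.

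Egr2, a zinc finger factor of myeloid cells and Schwann cells (chr10:67537869-67542188, plus strand), separated the genotypes in every library. In iWAT it was at 4.49, 3.76, 5.33, 2.89 and 3.61 CPM in Control and at 20.002, 19.9, 19.5, 23.4 and 23.2 CPM in Ai-α4KO libraries. The lowest Ai-α4KO value was over 3-fold the highest Control value. The log2 fold change was 2.39 (SE 0.17, adjusted p = 3.04e-06). Control BAT libraries held 0.911, 1.25, 0.997, 2.89 and 0.956 CPM and Ai-α4KO BAT libraries 13.96, 13.8, 9.53, 15.7 and 30.1 CPM. Here too no library overlapped, although Control BAT 4 and Ai-α4KO BAT 5 stood above the rest of their groups. Egr2 rose in BAT by a log2 fold change of 3.51 (SE 0.40, adjusted p = 1.27e-05), and it kept its call in all 25 alternatives in iWAT and all 22 in BAT.

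Egr1, an EGR gene readily induced by growth factors, was not called in either tissue. Control iWAT libraries were at 19.7, 18.02, 50.7, 14.2 and 7.91 CPM, and Ai-α4KO iWAT libraries at 29.9, 34.4, 31.6, 31.8 and 28.9 CPM. Except for library 3, each Control library was below each Ai-α4KO library. The estimate of 0.50 (SE 0.39, adjusted p = 0.295) became 1.02 (adjusted p = 0.00369), a call, without Control iWAT 3. In BAT Egr1 was at 6.06, 8.33, 6.84, 111 and 10.6 CPM in Control and at 63.7, 54.5, 23.0, 70.9 and 147 CPM in Ai-α4KO libraries. Control BAT 4 was 14.6-fold above the median of the other Control BAT libraries and above 4 of the 5 Ai-α4KO libraries. With it the log2 difference was 1.29 (SE 0.81, adjusted p = 0.186), and without it 3.13 (adjusted p = 1.61e-04). Egr2 made up 19.2% of the summed FPKM of Egr1 and Egr2 in Control and 41.2% in Ai-α4KO iWAT, and 10.2% and 21.1% in BAT, with no overlap of the libraries in either tissue.

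Myc, a driver of ribosome production and cell growth (chr15:61985341-61990361, plus strand), rose in both depots. It was at 15.02, 15.4, 11.5, 14.1 and 8.53 CPM in Control iWAT and at 26.1, 27.6, 26.8, 23.7 and 35.8 CPM in Ai-α4KO iWAT. In BAT the Control libraries held 6.74, 10.7, 12.8, 14.004 and 9.40 CPM and the Ai-α4KO libraries 27.9, 23.4, 32.2, 23.0 and 25.2 CPM. No Ai-α4KO library overlapped with Control in either tissue, and no library of Myc stood far from its group. The log2 fold change was 1.11 (SE 0.18, adjusted p = 2.97e-04) in iWAT and 1.26 (SE 0.19, adjusted p = 1.29e-04) in BAT. Without Control iWAT 5 the iWAT value was 0.996, just under 2-fold. The BAT value was 0.96 (adjusted p = 0.0184) with the muscle covariate.

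The order of the 10 messengers per length was read from the median FPKM of each group. In Control iWAT it ran from Jund at 11.7 over Jun at 7.66, Fosl2 at 6.81, Myc at 5.43, Egr1 at 5.39, Junb at 3.91, Fos at 1.84, Egr2 at 1.17 and Fosb at 0.277 to Fosl1 at 0.0342 FPKM. Neighbours overlapped over the libraries, except for Fos with Egr2 and Egr2 with Fosb. In Ai-α4KO iWAT Jund and Junb led at 20.7 and 20.6 FPKM, Fosl2 and Jun followed at 15.99 and 15.8, and Fos, Myc and Egr1 lay at 11.9, 10.9 and 9.90. Egr2 was at 6.74, Fosl1 at 5.32 and Fosb lowest at 0.864 FPKM. Fosl1 had moved past Fosb, from which it was separated in every Ai-α4KO library. In Control BAT Jund and Jun were highest at 7.99 and 7.97 FPKM and Fosl1 lowest at 0.0346, with every neighbour overlapping the next. In Ai-α4KO BAT Junb was highest at 24.4 FPKM, before Jun at 20.5, Egr1 at 19.4, Fos at 18.9 and Jund at 17.4, and Fosb was lowest at 1.19, all of the leading genes overlapping.

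The genotype effects of the depots were compared by an interaction term, with the 20 libraries in 1 model. For this term a gene was called at an adjusted p below 0.01 alone, with no limit on the fold. None of the 10 genes was called, against 4.86% of 15230 genes. At an unadjusted p below 0.05 there were 2 of the 10, Fosb and Egr2, and DESeq2 called 0. The effect in BAT exceeded that in iWAT by 1.62 in Fos (SE 0.84, adjusted p = 0.197), by 1.49 in Fosb (SE 0.63, adjusted p = 0.116) and by 1.15 in Egr2 (SE 0.43, adjusted p = 0.0761), on the log2 scale. For Fosl2, Junb and Myc the estimates were -0.018 (SE 0.31), 0.038 (SE 0.67) and 0.18 (SE 0.26). Without Control BAT 4 the interaction was called for Egr1, at 2.67 (adjusted p = 0.00989), and for Egr2, at 1.61 (adjusted p = 0.00698). The estimate for Fos was 0.64 (adjusted p = 0.555) without Control iWAT 3 and 2.49 (adjusted p = 0.0358) without Control BAT 4. Of the 12 macrophage markers, 10 were called by the same test with the larger effect in BAT, and their median interaction was 1.71.

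Depots of the same genotype were compared in the same model, with calls again at an adjusted p below 0.01 and at least 2-fold. Control BAT had less Egr2 than Control iWAT, by -1.50 on the log2 scale (SE 0.32, adjusted p = 6.39e-04), and the groups did not overlap, although the highest Control BAT and the lowest Control iWAT library were both at 2.89 CPM. It was the only one of the 10 genes called, while 15.4% of all genes were called lower and 7.34% higher in Control BAT (2346 and 1118 genes, or 2861 and 756 with no scaling). Jun was at 0.71 (SE 0.22, adjusted p = 0.0107) in the other direction and missed both limits. In Ai-α4KO tissue none of the 10 differed between BAT and iWAT by the same rule, against 12.6% of all genes called in either direction. At an unadjusted p below 0.05 there was 1, Jun at 0.50 (SE 0.22, adjusted p = 0.0743), and DESeq2 called 0. Fos was higher in every Ai-α4KO BAT library than in every Ai-α4KO iWAT library, with an estimate of 1.04 (SE 0.59, adjusted p = 0.169).

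Single libraries were high in several of these genes at once. Control BAT 4 was the highest Control BAT library for 7 of the 10 genes and for 17 of 34 other immediate early genes, against 20.5% of all genes. It was 7.40-fold above the median of the other Control BAT libraries in Fos, 4.63-fold in Junb, 2.96-fold in Egr2, 2.57-fold in Fosl2 and 2.27-fold in Jun, but only 1.40-fold in Myc. Other immediate early genes that were high in it were Nr4a1, a nuclear receptor, at 5.07-fold, Gadd45b at 4.14-fold, Cyr61 at 3.75-fold and Btg2 at 3.15-fold, all chosen after their values were seen. Control BAT 4 also held the highest macrophage marker sum of its group, 728.9 CPM against 321.3 to 548. Its stromal marker sum was the highest too, 2939 against 1729 to 2669, but its neutrophil and muscle sums were not. Whether these sums bear on the early response genes was not tested. Control iWAT 3 was high in Fos (6.47-fold), Egr1 (3.14-fold) and Fosb (2.65-fold) but not in Jun (0.755-fold) or Fosl2 (0.865-fold). Control iWAT 1 was high in Jund (3.46-fold) and Junb (3.91-fold), as was Ai-α4KO iWAT 1 (2.55-fold and 2.10-fold). Ai-α4KO BAT 3 was the lowest of its group for 6 of the 10 genes, as it was for 3407 of all 15230 genes. Ai-α4KO BAT 5 was the highest for 16 of the 34 other immediate early genes, compared with 2743 of all 15230.

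**Figure D4:**
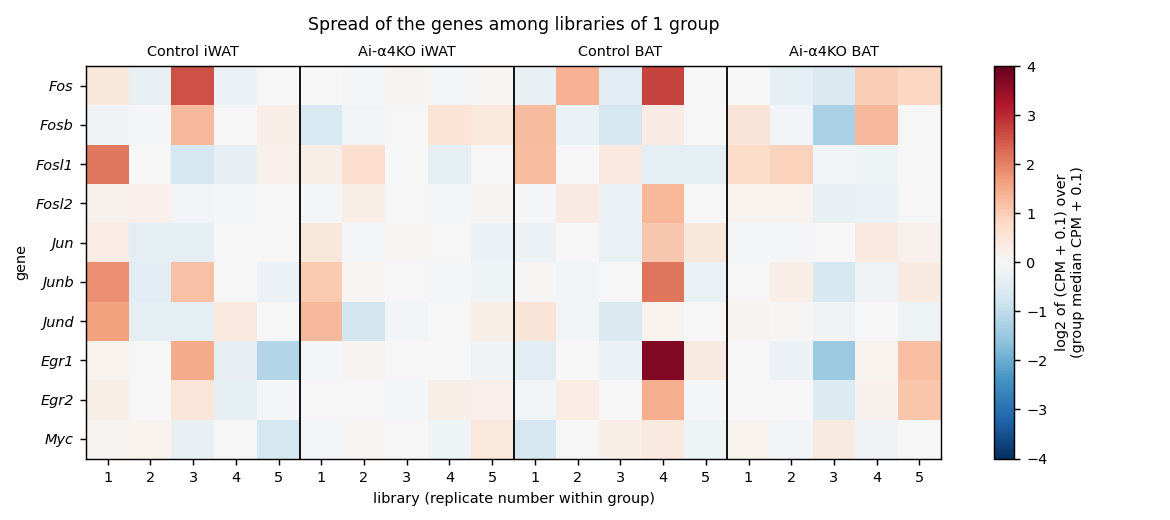
Log2 ratio of each gene's CPM to the median of its group, with 0.1 CPM added to both, for the 10 genes (rows) in the 20 libraries (columns, by replicate number). The darkest red squares are Egr1 and Fos in Control BAT 4 and Fos in Control iWAT 3.

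The genes whose centred log2 CPM lay closest to each of the 10 over the 20 libraries, by root mean square difference among 15229 genes, are given as a description. For Myc the closest was Npm1, the gene of nucleophosmin, at 0.257, followed by Cmtr2 at 0.276 and Spcs3 at 0.277. For Egr2 they were Cd300lb at 0.383, Tifab at 0.387 and Cd300a at 0.405, of which both CD300 genes encode receptors of myeloid cells. Fosl1 lay closest to Slpi (0.657), Il1rn (0.814) and Lcn2 (0.853). Fos lay closest to Egr2 (0.823), Tnfaip2 (0.835) and Junb (0.844), and Egr1 to Junb (0.810), Gadd45b (0.817) and Btg2 (0.839). The closest distances of Fosl2 (Cmtr2, 0.278), Jun (Midn, 0.293) and Jund (Map1s, 0.305) were below those of Junb (Gm7694, 0.547) and Fosb (Scin, 0.703).

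Immediate early genes outside these families were counted by the same rule. Of 34 tested, iWAT had 9 called higher and 1 lower, while BAT had 9 called higher and 2 lower. Among all genes 11.3% were called higher and 10.7% lower in iWAT, and 18.2% and 13.3% in BAT. Their medians were 0.52 and 0.76 on the log2 scale. In iWAT Ier3 was at 5.71 ± 1.55 CPM (SD, n = 5) in Control libraries and at 66.3 ± 18.9 with the knockout. The BAT levels were 5.84 ± 2.02 and 59.4 ± 13.5 CPM. These are log2 fold changes of 3.53 (SE 0.26, adjusted p = 3.31e-06) and 3.31 (SE 0.25, adjusted p = 4.70e-07). Plk2, a kinase gene, rose by 1.82 and 1.85, Ier5 by 1.81 and 2.18, and Gem, a small GTPase gene, by 1.67 and 2.93. Egr3, a further EGR gene, rose by 2.43 in BAT (adjusted p = 0.00196) and was at 1.06 in iWAT (adjusted p = 0.173). Nr4a2 fell in iWAT by 1.18 (adjusted p = 7.95e-04), and Rhob fell in BAT by 1.09 (adjusted p = 1.90e-04). Pim1, a kinase gene, rose in iWAT by 1.34 (adjusted p = 0.00813) and fell in BAT by 1.04 (adjusted p = 1.35e-04).

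Partners that compete for or share AP-1 sites belong to the bZIP family. Of 17 tested in iWAT and 18 in BAT, 8 were called higher in each, or 7 of 17 in BAT without Mafa, which passed the filter only through the Ai-α4KO libraries. Atf3, a stress-induced partner of JUN, held 6.47 ± 1.93 CPM in Control and 48.2 ± 2.99 in knockout libraries of iWAT (SD, n = 5 each). The BAT libraries held 5.47 ± 2.94 and 54.7 ± 13.6 CPM. These are log2 fold changes of 2.89 (SE 0.19) and 3.29 (SE 0.37). Batf, a partner of JUN in immune cells, rose by 2.36 in iWAT and 4.38 in BAT, and Batf3 by 1.79 and 2.62. Bach1, a repressor that pairs with small MAF proteins, rose by 1.79 and 1.29, and Maf, which macrophages express, by 1.47 and 2.86. In the MYC and MAX network 1 of 13 genes, Mxd3, rose in each tissue, and 2 fell in iWAT and 3 in BAT. Beside 11.3% and 18.2% of all genes called higher and 10.7% and 13.3% called lower, nothing is read from these counts about the network. Mxd3 rose by 1.64 in iWAT and was fitted at 3.03 in BAT, where it passed the filter only through the Ai-α4KO libraries, while Mlxipl, the carbohydrate-sensing factor ChREBP of adipocytes, fell by 2.13 and 2.04, and Mycl fell by 1.21 and 1.19. Nab2, a corepressor that EGR factors induce, rose by 1.27 in iWAT (adjusted p = 4.69e-04) and was at 0.99 in BAT (adjusted p = 0.00641), under the 2-fold limit.

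Kinases and factors that act upstream come from the MAPK cascades. Of 35 genes of the MAPK cascades and SRF, 3 were called in iWAT, all higher, and 6 in BAT, of which Elk4 alone was lower, with medians of 0.19 and 0.09. These shares lie below those of all genes called higher, 11.3% in iWAT and 18.2% in BAT, and 1 of the 3 in iWAT, Mapk13, passed the filter only through the Ai-α4KO libraries. Map3k8, the kinase TPL2 that links inflammatory receptors to ERK, rose by 1.53 in iWAT (SE 0.18, adjusted p = 4.61e-05) and 1.88 in BAT (SE 0.30, adjusted p = 1.73e-04). Elk4, an SRF cofactor, fell in BAT by 1.07 (adjusted p = 0.00498). Of the inhibitors that MAPK signaling induces, 5 of 19 were called higher in iWAT and 5 of 18 in BAT. Without the genes that passed the filter only through the Ai-α4KO libraries these were 4 of 17 and 3 of 16, the latter near the 15.7% of all genes in BAT. Dusp5, a phosphatase of nuclear ERK, was fitted at 2.91 and 2.28, from at most 33 counts per Control library, and passed the filter only through the Ai-α4KO libraries in both tissues. Dusp8 rose by 1.58 and 1.17, and Spred1 by 1.42 and 1.32. Dusp2 rose in BAT by 2.18, whereas in iWAT it was at -2.04 (SE 0.90, adjusted p = 0.0766), with up to 737 counts in the Control libraries. Without Control iWAT 1 and 4 the iWAT estimate was 1.01.

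Textbook targets were listed for each factor, with results of these data already known, so their counts are not independent evidence. Of the 24 AP-1 targets in the table, higher calls numbered 15 of 22 tested in iWAT and 18 of 20 in BAT, beside 11.3% and 18.2% of all genes. Vegfa was called lower in each tissue, beside 10.7% and 13.3% of all genes. Without genes that passed the filter only through the Ai-α4KO libraries, the higher calls were 12 of 18 and 14 of 16, with medians of 2.06 and 3.27. Of all genes selected the same way, 10.8% and 15.7% were called higher. The genes left out include Il6 and Sprr1a in both tissues, and Cxcl1 and Lif in BAT, whose values are a description there. Il6, a cytokine gene, was at 0.0603 ± 0.0549 CPM in the Control libraries of iWAT, with at most 5 counts each, and at 39.1 ± 17.4 with the knockout (SD, n = 5 each). In BAT, where no Control library held over 3 counts, its mean in Ai-α4KO libraries was at least 214-fold higher than the level of 3 counts per library. Cxcl1, a chemokine gene, had a log2 fold change of 8.30 (SE 0.30) in iWAT, from 0.768 to 242 CPM on average, and was fitted at 7.74 in BAT. Ccl2 had 6.39 (SE 0.24) and 6.93 (SE 0.43). Vegfa, the gene of an angiogenic growth factor, fell by 1.997 and 1.64. Many of these genes are also made by macrophages, whose markers moved with them as given above.

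Of the 18 AP-1 targets matched to a RefSeq window, 10 held TGACTCA or TGAGTCA in the 250 bases before the start, or 55.6%, compared with 5.16% of all genes with a window. The list was written as AP-1 targets, and some were named as such for this site. The site with 17 bases on each side is shown for 6 genes called higher in both tissues, in capitals, 5′ to 3′ on the strand of the gene (RefSeq, GRCm38.p6). They encode matrix proteases (Mmp3, Mmp12, Mmp13), the urokinase receptor (Plaur), a cytokine (Lif) and a cornified envelope protein (Sprr1a, with 2 sites). Il6 also held the site and was called higher in both tissues. It is not shown, because its site began 249 bases before the start, at the edge of the window.
Mmp3 (chr9:7445759-7445799, plus strand): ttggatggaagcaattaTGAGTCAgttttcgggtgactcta
Mmp12 (chr9:7347313-7347353, plus strand): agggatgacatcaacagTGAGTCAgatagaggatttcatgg
Mmp13 (chr9:7272462-7272502, plus strand): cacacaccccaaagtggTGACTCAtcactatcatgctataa
Plaur (chr7:24462397-24462437, plus strand): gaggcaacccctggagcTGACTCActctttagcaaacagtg
Lif (chr11:4257323-4257363, plus strand): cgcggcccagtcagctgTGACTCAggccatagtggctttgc
Sprr1a, first site (chr3:92486004-92486044, minus strand): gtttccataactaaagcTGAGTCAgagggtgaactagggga
Sprr1a, second site (chr3:92485974-92486014, minus strand): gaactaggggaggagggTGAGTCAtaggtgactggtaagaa

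The site began 46 bases before the start in Mmp3, 44 in Mmp12, 35 in Mmp13, 69 in Plaur, 228 in Lif, and 146 and 116 in Sprr1a. For Plaur the distance is from the RefSeq start, which lies 17 bases from that of the deposited table. Log2 fold changes in iWAT and BAT were 1.96 and 2.99 for Mmp3, 3.15 and 4.62 for Mmp12, and 1.77 and 1.39 for Mmp13. They were 2.83 and 3.42 for Plaur, 1.35 and 1.98 for Lif, and 8.19 and 6.40 for Sprr1a. All 6 passed edgeR's quasi-likelihood test in both tissues, but the tests of Sprr1a, with at most 10 counts in any Control library, and of Lif in BAT were fixed by the filter, and their fitted values depend on the prior count. None of the 23 other immediate early genes with a window held the site.

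Targets of EGR factors and of MYC were counted likewise. Of 14 EGR targets tested, 4 rose in iWAT and 7 in BAT, beside 11.3% and 18.2% of all genes called higher. In each tissue 2 fell, Vegfa and F3, beside 10.7% and 13.3% of all genes called lower. Tnf rose by 2.25 in iWAT and was fitted at 4.28 in BAT, where it passed the filter only through the Ai-α4KO libraries. Without Tnf, 6 of 13 were called higher in BAT, beside 15.7% of all genes selected the same way. Icam1 rose by 1.94 and 2.84, and Hpse, the gene of heparanase, by 1.29 and 3.93, while F3, the gene of tissue factor, fell by 1.13 and 1.33. Of 30 MYC targets, 4 rose in iWAT, and in BAT 2 rose and 3 fell, with medians of 0.37 and 0.31. The nucleolar genes Npm1 and Nop58 rose in both tissues, Npm1 by 1.07 and 1.198 and Nop58 by 1.63 and 1.27. Phb, which encodes a mitochondrial scaffold protein, fell in BAT by 1.29, Phb2 by 1.11, and Cad, the gene of a pyrimidine synthesis enzyme, by 1.32. The share of MYC targets called higher in iWAT is close to the 11.3% of all genes, and in BAT the shares lie below the 18.2% called higher and the 13.3% called lower, so that nothing is read from them about the list. Of the 24 MYC targets with a window, 6 held CACGTG, compared with 6.86% of all genes with a window. An EGR site was held by 2 of the 12 EGR targets with a window, compared with 3.47% of all genes. Both lists were written as targets of these factors, so these shares are not independent evidence.

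**Figure D5:**
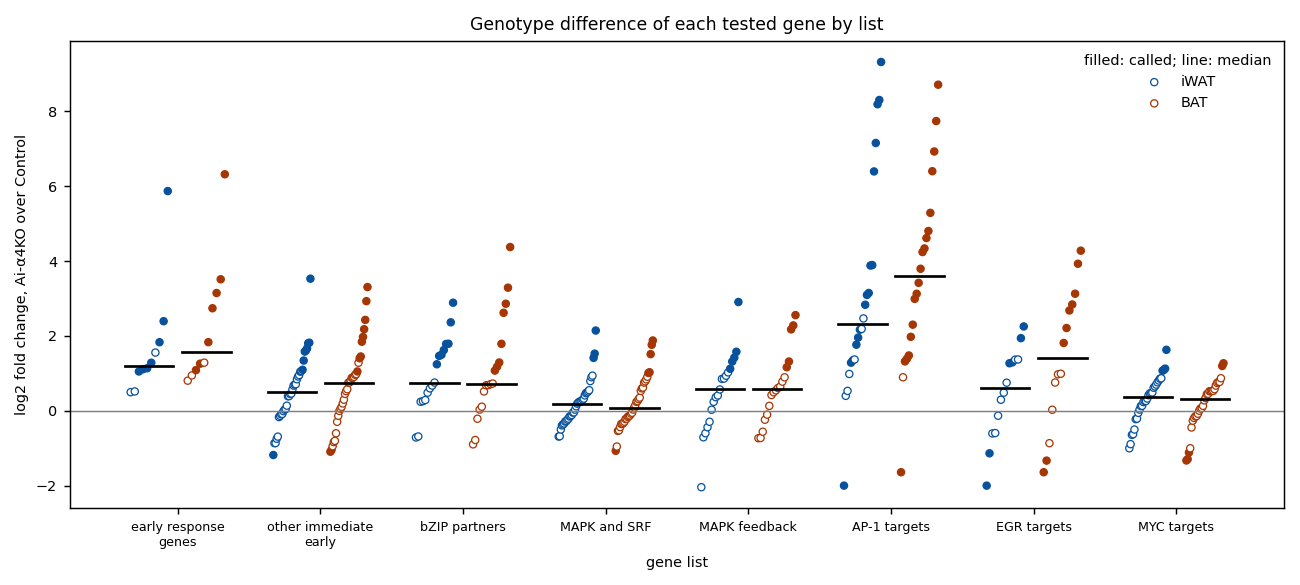
Log2 fold change of every tested gene in 8 lists, in iWAT and BAT, with filled points where called and a line at the list median. The median of the AP-1 targets is 2.33 in iWAT and 3.61 in BAT, or 2.06 and 3.27 without the genes that passed the filter only through the Ai-α4KO libraries.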

How the data were processed

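RNA libraries were made with a stranded mRNA kit from 20 samples. The submitters' processing notes name bcl2fastq 2, STAR 2.5.3a and the build mm10. The counting tool and its use of strand are not given in the sources used here. The authors deposited expected counts, estimated reads per gene without normalization, of which 76.6% of the nonzero values are whole, and FPKM values scaled by transcript width and library. The expected counts were rounded to whole numbers for edgeR 4.0.16 under R 4.3.3 (filterByExpr, TMM, quasi-likelihood test, Benjamini-Hochberg adjustment over all genes) within each tissue, or over all 20 libraries for interaction and depot. Expression is given as CPM with TMM factors over all libraries. FPKM served for levels between genes, for sums and shares of the gene families in each group, and for limma 3.58.1. They carry no TMM factors, which were 0.833 to 0.909 in Control BAT and 0.943 to 1.09 in Ai-α4KO BAT. Differences of FPKM sums between genotypes are thus on another scale than CPM. Other alternatives were DESeq2 1.42.0, other scalings and filters, a replicate block, a muscle covariate and leaving out libraries. Floors (3 counts) cover counting error only.

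The genes and all 22 lists were chosen with earlier results of these data known. Of the listed symbols 309 of 311 matched the table. Names were drawn from up to 4 called genes per list, direction and tissue with the largest change, any called in opposite directions, and the up to 3 nearest genes by centred log2 CPM. Not all of them are printed. Plaur, Lif, Mmp3, Mmp12 and Mmp13 were named for their sites, and others after their values were seen are said to be so. The scripts were tested on simulated data.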

Additional observations from a re-analysis of the deposited data

Results flagged for a closer look

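On the scale of log2 CPM, in groups of 5 libraries, the gap of the highest or lowest library to its neighbour was divided by the range of the group and compared with Dixon's critical value of 0.71. Chance flags about 1 in 20 groups, and 44 groups were tested. Control BAT 4 stood apart as the highest library for Junb (ratio 0.875), Egr1 (0.808) and Egr2 (0.739). Control iWAT 3 was apart for Fos (0.741) and Ai-α4KO iWAT 1 for Junb (0.794). These ratios hold for the log2 scale and differ on CPM. The effects on calls are given with each gene.

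Among the genes named in the report with their own values, the genotype effect differed between tissues by edgeR's interaction test for Gem (1.29 more on the log2 scale in BAT, adjusted p = 0.00665), Batf (2.04, adjusted p = 0.0059) and Hpse (2.66, adjusted p = 2.73e-04), which rose in both tissues. For Pim1 it was -2.36 (adjusted p = 0.00135), with a rise in iWAT and a fall in BAT.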

How the results depend on the processing

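Of the 10 genes, 7 called in iWAT became 4 without Control iWAT 4 and Ai-α4KO iWAT 1, chosen after seeing the data, and 4 to 8 with each library left out, the 4 arising without Control iWAT 2 or Control iWAT 5. In BAT the 7 became 4 with a muscle marker score as covariate and 5 to 9 with each library left out, 9 arising without Control BAT 4. The interaction count of 0 ran from 0 to 2. The Control depot call of Egr2 was lost by limma on log2(FPKM + 1), giving 0 calls. A replicate block gave 8 calls in iWAT, with Fos gained, and 7 in BAT. Same-numbered Control and Ai-α4KO libraries correlated at -0.404 to 0.12 (iWAT) and -0.193 to 0.255 (BAT). Same-numbered iWAT and BAT libraries correlated at -0.0947 to 0.226 (Control) and -0.276 to 0.241 (Ai-α4KO). The same number was the best match for 0 libraries in iWAT, 1 in BAT, and 2 in each comparison of iWAT with BAT. These low values do not show that numbers pair the samples, and they are too few to exclude it. Signs turned for the Jun interaction without Ai-α4KO iWAT 1 or Control BAT 4 (-0.33 to 0.067 with each library left out), for Jund between Ai-α4KO depots without Ai-α4KO iWAT 1 (-0.43 to 0.18), for Dusp2 in iWAT without Control iWAT 1 and 4 (1.01) and for Mapk13 in BAT with the muscle covariate (0.56). The cause was not tested. A filter of at least 10 counts in every library removed Fosl1, and Fosb in BAT. Upper-quartile scaling lost Fosb and Jun in iWAT, and no scaling moved the median of all genes to 0.13 in iWAT and 0.23 in BAT and gave 9 calls in BAT. Egr2 kept its call in both tissues in every alternative that tested it.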

Other observations

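Calls in the other cell type lists are given as counts, beside 11.3% of all genes called higher and 10.7% lower in iWAT, and 18.2% and 13.3% in BAT. Of 8 endothelial markers, 4 were called lower in iWAT and 5 in BAT, and of 5 erythroid markers tested, 3 and 4 were called lower. Stromal markers were called higher for 1 of 10 in iWAT and 5 of 10 in BAT. Neutrophil markers were called higher for 4 of 8 in iWAT and 6 of 7 in BAT, and brown adipocyte markers lower for 7 of 8 in iWAT and 3 of 8 in BAT. Of the T cell markers, 5 of 7 were called higher in BAT, of which Cd8b1 passed the filter only through the Ai-α4KO libraries. In iWAT their median log2 fold change of -2.33 came with sums of 260.0 and 288.8 CPM in Control iWAT 1 and 4, against 9.17 to 11.8 in the other Control libraries and at most 58.3 in the Ai-α4KO libraries, each of which lay above those other 3 Control libraries. All 8 T cell markers missed the threshold in iWAT. Of the B cell markers, 1 of 7 was called lower in iWAT, where 2 Control libraries held high levels, and 1 of 3 higher in BAT. Schwann cell markers gave 1 lower call of 7 in iWAT, and 1 call in each direction in BAT, and the 1 epithelial marker tested in BAT was called higher, having passed the filter only through the Ai-α4KO libraries, while the median of 4 tested in iWAT was 0.93. Their part in the results on early response genes was not tested.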
